A study of Mus musculus with 24 samples.

Results

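The comparison described here is of mouse brain endothelial cells from slices given exosomes of knockout donor cells, compared with endothelial cells from slices given PBS. It spans all 14164 genes whose values varied, in 8 of the 24 samples of the series and 8 of the 10 endothelial libraries analysed here. Exosomes are small membrane vesicles that cells release and other cells take up. Mouse brain slices were kept for 2 days with PBS, or with exosomes stained with the green membrane dye PKH67 at 5 µg per slice. The outer ring of each slice was then dissected and dissociated, and CD45- CD31+ cells were sorted as endothelium. There were 3 PBS libraries (letters A, B and C), 3 libraries of the group named knock out 1 (KO1 A, B and C) and 2 of the group named knock out 2 (KO2 B and C). KO2 A and 1 of the wild-type exosome libraries (WT C) were not analysed here. The labels give no mouse strain or age, do not name the deleted gene or the donor cells, and do not say whether each knockout is 1 clone. The series title concerns tumour exosomes that carry CEMIP, a protein that binds hyaluronan and helps to break it down. The labels call the PBS cells exosome-positive too, although PBS slices received no dyed vesicles, so the gate used for them is unclear. The comparison sets slices with knockout exosomes against slices with no exosomes.

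Brain endothelial cells line the vessels of the brain and form the blood-brain barrier through tight junctions and a set of selective transporters. They also sense inflammatory signals: type I interferons act through STAT and IRF factors on genes whose promoters hold interferon-stimulated response elements, and cytokines act through NF-kB on chemokine and adhesion genes. Notch, VEGF, Wnt and BMP signalling keep the arterial, venous and barrier identities of these cells. Exosomes from tumours are known to be taken up by brain endothelium.

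Values are given below as normalised counts recovered from the deposited log2 table, in the order of the letters A, B and C (B and C for KO2), and a difference is the knockout mean (the mean of KO1 and KO2) minus PBS on the deposited log2 scale, ± its standard error. That scale is compressed, most strongly below about 9957 counts but also above it. A difference therefore understates the log2 ratio of the counts at all the levels reported here. For a few genes the ratio of the mean counts is given as a fold. The other differences should not be read as log2 ratios of counts. Library totals were 25662166 to 28046010 normalised counts. The PBS libraries had 11305 to 11952 genes above the floor of the table and the knockout libraries 9516 to 11531. Estimated from the steps of low values, 1 read was worth 1.535 counts in PBS A and 1.372 in PBS B, and 0.72 to 1.03 in the other 6, so PBS A and PBS B were sequenced least deeply. Whether the letters are separate animals is not in the labels. The p-values therefore rest on sample-to-sample spread that could be purely technical.

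Endothelial transcripts were abundant in every library, but not every library was purely endothelial. In KO1 B the choroid plexus and ependyma markers summed to 361926 counts, above the 347628 of the endothelial markers. The endothelial adhesion molecule Pecam1, which encodes CD31, had 42620.4, 48788 and 42939 counts in PBS, 43954, 51649 and 54125 in KO1 and 42873 and 43879 in KO2. Ptprc, the gene of the leukocyte antigen CD45, had 0 counts in PBS, 0, 119 and 0 counts in KO1 and 0 and 289.7 in KO2. Itgam, which encodes CD11b, had 6.11, 9.58 and 4.54 counts in PBS, 25.8, 1298 and 27.3 in KO1 and 438 and 0 in KO2, and Itga4, which encodes CD49d, had 82.3, 36.9 and 232 in PBS and 16.2 to 279 in the knockouts. Summed over 17 endothelial markers, PBS had 419388 to 463801 counts and the knockouts 347628 to 454185. The 17 markers of choroid plexus and ependyma, the epithelia that make and border the cerebrospinal fluid, stood apart. Their sum was 3958, 7400 and 995 in PBS, 203292, 361926 and 6727 in KO1, and 313724 and 22988 in KO2. Transthyretin (Ttr) and Enpp2 led that sum. The sum of 11 monocyte and neutrophil markers, led by Lcn2, moved the same way, with 3240 to 4937 counts in PBS, 32407, 27825 and 1524 in KO1, and 30165 and 5776 in KO2. Only 1 of these 11 markers reached 100 counts in each KO1 library and in KO2 C, and 3 did in KO2 B. The sum therefore rests on few genes and does not measure how many such cells were present. The fibroblast and meningeal markers had 634 to 1559 counts in PBS, 6259, 8096 and 166 in KO1, and 5725 and 1783 in KO2. The microglial markers had 784 to 1034 counts in PBS, 97, 3100 and 1619 in KO1, and 2863 and 1269 in KO2. The wild-type exosome libraries WT A and WT B had 235618 and 205656 counts of the choroid plexus and ependyma markers. KO1 A, KO1 B, KO2 B and both wild-type libraries therefore held far more choroid plexus RNA than KO1 C, KO2 C and PBS. The trait was not particular to the knockout exosomes.

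**Figure D1:**
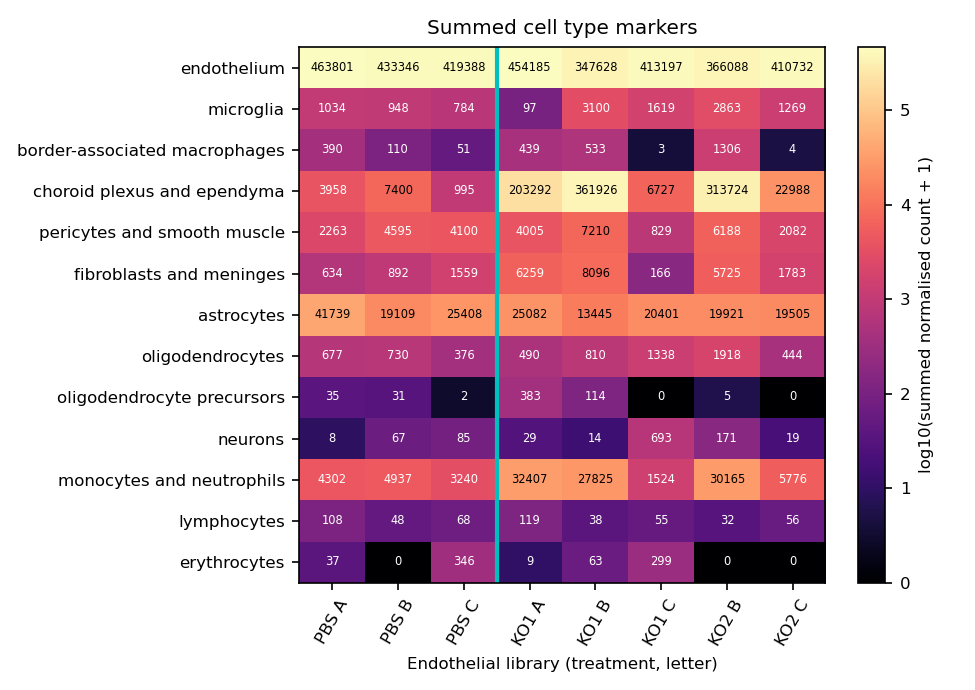
Summed normalised counts of the markers of 13 cell types (rows) in the 8 endothelial libraries (columns), colour on a log10 scale and the sum printed in each cell. The choroid plexus and ependyma row reads 3958, 7400 and 995 in PBS and reaches 361926 in KO1 B, whereas the endothelium row stays between 347628 and 463801.

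Against PBS, 17 of 14164 genes passed an adjusted p of 0.05 (limma, Benjamini-Hochberg over all genes), which is 0.120% of those tested, and all 17 fell. In 245 genes (1.73%) every knockout library lay above every PBS library, and in 437 (3.09%) below. At an unadjusted p under 0.05 there were 913 genes (6.45%), 247 higher (1.74%) and 666 lower (4.70%). The 17 were Pot1a, Tyw3, Akr1c14, Chek1, Ccn5, Fut10, Evpl, Cenpn, Napepld, Ttc30a1, Kcp, Il20rb, Cttnbp2, Npc1l1, Zfp955a, Gabrr2 and Azin2. Their common shape was a low count in every PBS library and none, or next to none, with knockout exosomes. PBS means ran from 55.0 to 384.1 counts with a median of 116.0, and 11 of the 17 were listed at 0 in all 5 knockout libraries. In the 2 wild-type exosome libraries all 17 also had at most 3 counts, so for these 17 the shape was not confined to the knockout exosomes. Those 2 libraries entered the shared spread of the fit, so genes uneven between them were less likely to pass. With only the PBS and knockout libraries in the fit 10 genes passed, 6 of them among the 17. Over the table, 39 genes had at least 20 counts in every PBS library and at most 3 in every knockout library, and 0 genes had the reverse. Listing at 0 was common: of the 9428 genes with a mean of at least 100 counts over the 8 libraries, 2395 were listed at 0 in at least 1 of them. No fold is given against a group listed at 0. The calls depended on the fit and on single libraries. With the letter as a replicate block in the limma fit 0 genes passed (lowest adjusted p 0.121). Likewise 0 passed without KO1 A, without KO1 C or on log2 of counts plus 50 (690 at an unadjusted p under 0.05), and 27 passed without PBS B. In bulk libraries, fewer cells of a type and less RNA per cell cannot be told apart.

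**Figure D2:**
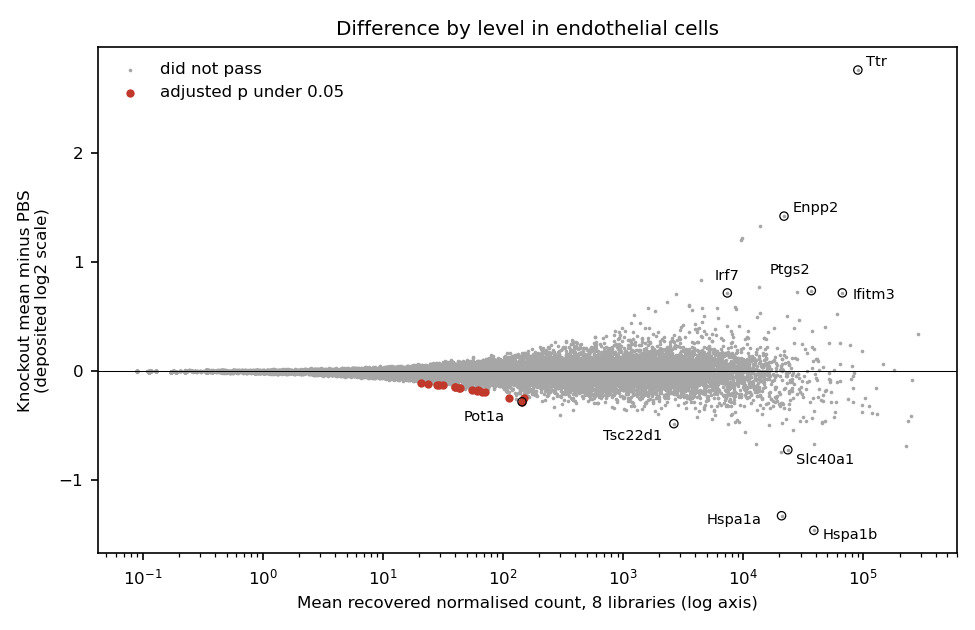
Difference of knockout mean minus PBS (deposited log2 scale) for each gene against its mean normalised count over 8 libraries (log axis), with the 17 genes past the threshold in red. The red genes are all lower and have low means, while the widest differences, such as Ttr at 2.76 and Hspa1b at -1.46, did not pass.

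Pot1a, a shelterin protein that caps telomeres, had 339, 311 and 503 counts in PBS and 0 in all 5 knockout libraries (difference -0.28 ± 0.024, adjusted p = 0.0112). Fut10, a fucosyltransferase, had 333, 385 and 179 counts in PBS, 0, 0 and 1.04 in KO1 and 0 and 0 in KO2 (adjusted p = 0.0112). The zinc finger gene Zfp955a had 319, 405 and 371 counts in PBS, 0, 74.2 and 23.5 in KO1 and 0 and 0 in KO2 (difference -0.24 ± 0.033, adjusted p = 0.0388). These 3 were the called genes with a mean of at least 100 counts, and in each the groups did not overlap. Of the lower-count genes, Chek1 encodes the checkpoint kinase CHK1 and had 87.1, 142 and 113 counts in PBS and 0 in every knockout library (adjusted p = 0.0112). Cenpn, a centromere protein, had 64.2, 50.4 and 75.1 counts in PBS and 0 in every knockout library (adjusted p = 0.0163). Tyw3, a tRNA-modifying enzyme, had 123, 205 and 205 counts in PBS and was likewise at 0 (adjusted p = 0.0112). Ccn5, a matricellular protein, had 71.9, 89.9 and 73.3 counts in PBS, and no knockout library had any (adjusted p = 0.0112). Napepld, the phospholipase that releases N-acylethanolamines, had 124, 267 and 176 counts in PBS and at most 2.75 in a knockout library (adjusted p = 0.0229). Napepld was also the 1 of the 17 among the 362 genes of the authors' deposited table, at an adjusted p of 0.0213 in the authors' deposited table.

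**Figure D3:**
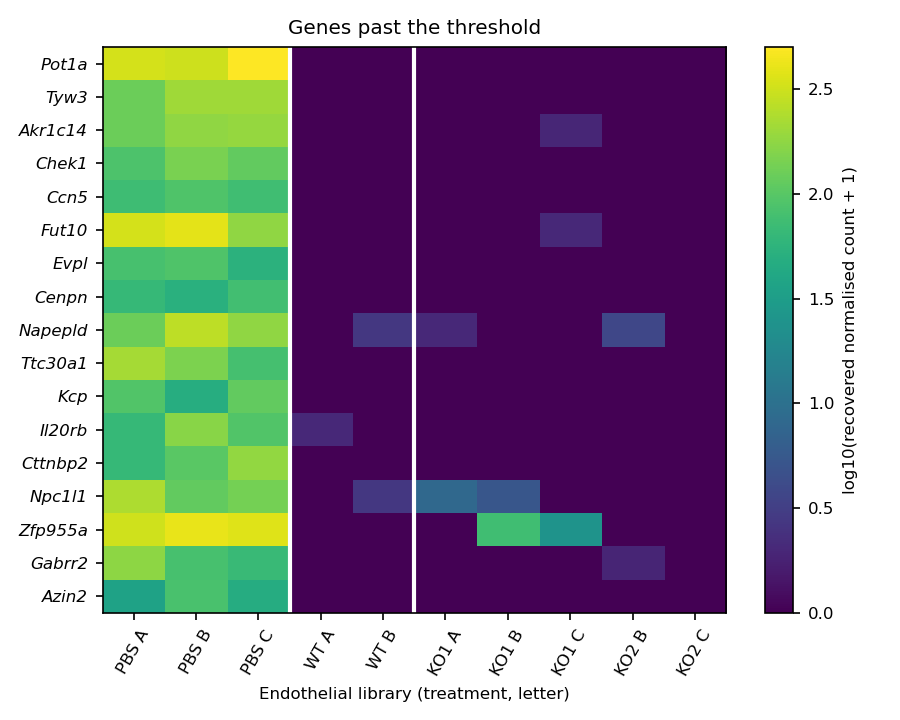
Normalised counts (log10 of count + 1, colour) of the 17 genes past the threshold (rows) in the 10 endothelial libraries (columns, white lines between treatments). The PBS columns hold 35.0 to 502.6 counts and the exosome columns are dark, except Zfp955a in KO1 B and KO1 C.

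None of the more abundant genes with higher levels passed. Among genes with a mean of at least 100 counts, 47.9% had a higher mean, 221 (2.34%) were higher and 339 (3.60%) lower at an unadjusted p under 0.05, and in 225 (2.39%) every knockout library lay above every PBS library, against 245 (2.60%) below. The 12 higher genes of smallest p had adjusted p from 0.184 to 0.452, and in 11 of the 12 the groups did not overlap. Choosing genes by p in this contrast favours such a gap. Mt2, a metallothionein that binds zinc and copper, had 2000.0, 3398 and 3433 counts in PBS, 5309, 5422 and 5125 in KO1 and 7203 and 6992 in KO2, a 2.1-fold mean (difference 0.34 ± 0.065, adjusted p = 0.184). Every knockout library was above the highest PBS library. Its neighbour Mt1 had 10484, 13349 and 13770.5 counts in PBS, 17982, 19329.7 and 27802 in KO1 and 23348 and 17076 in KO2 (adjusted p = 0.517), again without overlap. Pdia6, a disulfide isomerase of the endoplasmic reticulum, had 12203, 10199 and 11714 counts in PBS, 18275, 13956 and 16118 in KO1 and 18264 and 18111 in KO2 (difference 0.30 ± 0.06, adjusted p = 0.206). All 5 knockout values of Pdia6 were above PBS. Ezh2, the methyltransferase of Polycomb complex 2, had 53.7, 65.8 and 21.8 counts in PBS, 424, 137 and 418 in KO1 and 408 and 546 in KO2, and 0 in both wild-type libraries (adjusted p = 0.452). Cpe, which trims peptide hormones, was the gene of the 12 whose groups overlapped, with 4169, 3624 and 5694 counts in PBS, 10459.8, 9857 and 9290.1 in KO1 and 6395 and 5278 in KO2 (adjusted p = 0.232). The other 8 were Ttc9, Vps72 (a subunit of chromatin remodellers), Gnas (the stimulatory G protein), Ncl (nucleolin), Hnrnpu, Gipc1, and Abcb1a and Eno1, whose values are given with their groups.

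Of the 12 lower genes of smallest p, 3 passed (Pot1a, Fut10 and Zfp955a), and all 12 were below PBS in every knockout library. Choosing genes by p in this contrast favours such a gap, so the gap is not separate support. Tsc22d1, a leucine-zipper regulator induced by TGF-beta, had 5398, 4083 and 5183 counts in PBS, 1790.4, 1120.1 and 1269 in KO1 and 1578 and 738 in KO2. The PBS mean was 3.83 times the knockout mean (difference -0.48 ± 0.07, adjusted p = 0.0608), just outside the threshold. The wild-type libraries had 1409 and 695 counts, in the knockout range. Adipor1, an adiponectin receptor, had 23816, 19502 and 21259.7 counts in PBS, 13523, 14339 and 12902 in KO1 and 14315 and 14443 in KO2 (adjusted p = 0.218). Ppp1r2, an inhibitor of protein phosphatase 1, had 21402, 15033 and 15487 counts in PBS, 10540.0, 10038 and 11796 in KO1 and 9914 and 10476 in KO2 (adjusted p = 0.204). In both genes the 5 knockout libraries were close to each other and clearly below PBS. The others named are Atp8a1 (a lipid flippase), Pip4k2c, Mfsd14a, Zfc3h1 and Zfp81, with adjusted p up to 0.262.

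Genes of the type I interferon response were mostly higher with knockout exosomes, and mostly in 3 of the 5 libraries. Of 36 listed genes tested, 30 had a higher mean, with a median difference of 0.15, against 45.8% higher and a median of -0.005 over all genes. 4 of the 36 lay above PBS in every knockout library, against 1.73% of all genes, and none passed (lowest adjusted p 0.706). The response element of these genes is the subject of the 4 promoter sequences printed here, the 250 bases before the transcription start of genes of the 2 interferon lists, from RefSeq on GRCm38.p6, 5′ to 3′ on the gene's strand. Capitals mark GAAANNGAAA on either strand, the core spacing of an interferon-stimulated response element. Adjoining matches are merged. Isg15 (chr4:156200819-156201068, minus strand) has 3 matches, Rsad2 (chr12:26456453-26456702, minus) has 1, Ifit3 (chr19:34583279-34583528, plus) has 2 and Gbp3 (chr3:142559794-142560043, plus) has 2.
Isg15: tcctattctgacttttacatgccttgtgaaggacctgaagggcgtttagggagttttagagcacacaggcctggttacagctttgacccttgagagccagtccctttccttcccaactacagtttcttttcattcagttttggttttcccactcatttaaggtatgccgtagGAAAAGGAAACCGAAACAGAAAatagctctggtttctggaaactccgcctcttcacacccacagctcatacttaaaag
Rsad2: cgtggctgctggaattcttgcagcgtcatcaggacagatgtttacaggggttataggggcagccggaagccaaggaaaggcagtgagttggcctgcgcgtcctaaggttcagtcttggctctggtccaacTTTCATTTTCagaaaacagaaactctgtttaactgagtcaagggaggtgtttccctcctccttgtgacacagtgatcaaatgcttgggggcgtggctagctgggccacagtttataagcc
Ifit3: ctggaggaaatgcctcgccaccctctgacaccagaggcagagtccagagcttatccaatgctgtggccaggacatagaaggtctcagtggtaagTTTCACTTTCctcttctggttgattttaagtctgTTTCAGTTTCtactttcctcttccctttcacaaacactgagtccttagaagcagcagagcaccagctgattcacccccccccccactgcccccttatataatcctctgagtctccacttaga
Gbp3: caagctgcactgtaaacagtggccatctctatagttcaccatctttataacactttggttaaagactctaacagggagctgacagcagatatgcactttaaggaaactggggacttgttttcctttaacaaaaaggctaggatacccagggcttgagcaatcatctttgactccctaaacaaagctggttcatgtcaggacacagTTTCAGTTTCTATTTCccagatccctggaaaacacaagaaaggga
The motif was found in 978 of 32851 such windows (2.98%) and in 936 of 27025 genes with a window (3.46%), in 10 of the 28 interferon-list genes with a window and in 9 of 9 interferon-inducible GTPase genes.

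The interferon genes described next did not move alike across the libraries of a group. Isg15, a ubiquitin-like modifier, had 1592, 1689 and 781 counts in PBS, 12641, 3755 and 1555 in KO1 and 7889.5 and 1575 in KO2 (difference 0.43 ± 0.24, adjusted p = 0.895). The KO1 A and KO2 B values were several times PBS, while KO1 C and KO2 C overlapped with it. Rsad2, the antiviral enzyme viperin, had 1443, 1119 and 674 counts in PBS, 8838, 3061 and 1838 in KO1 and 6278 and 1856 in KO2 (adjusted p = 0.805), with every knockout library above PBS. Irf7, the master transcription factor of the late interferon response, had 2219, 1848 and 853 counts in PBS, 25396, 7320.5 and 2801 in KO1 and 16057 and 2477 in KO2, 6.43-fold of PBS as a mean (difference 0.72 ± 0.34, adjusted p = 0.822). Irf7 was also above PBS in every knockout library. Ifitm3, a membrane protein that blocks viral entry, had 52539, 40609.9 and 25556 counts in PBS, 154094, 74447 and 40741 in KO1 and 100619.8 and 45959.8 in KO2 (adjusted p = 0.881), and the groups overlapped. Bst2 (tetherin) had 1803, 1834 and 1649 counts in PBS, 10992, 4822 and 2441 in KO1 and 6812 and 2376 in KO2 (adjusted p = 0.783), above PBS throughout, and the RNA sensor Ddx58 (RIG-I) had 3135, 2033 and 2957 in PBS and 2492 to 7637 over the 5 knockout libraries (adjusted p = 0.706). The wild-type exosome libraries had 32219.9 and 12585 counts of Irf7. Compared with the PBS library of the same letter, the list's median difference was 0.41 in KO1 A (31 of 36 higher), 0.19 in KO1 B (33) and 0.34 in KO2 B (32), but 0.06 in KO1 C (20) and 0.00 in KO2 C (16). The choroid plexus sums were 203292, 361926 and 313724 counts in the first 3 of these libraries and 6727 and 22988 in the C libraries, and the part of these other cells in the result was not tested.

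The interferon-inducible GTPases, which attack the vacuoles of intracellular microbes, were higher in 14 of 14 genes tested (median difference 0.20, lowest adjusted p 0.679). Gbp3 had 1953, 1649 and 318 counts in PBS, 9931, 3965 and 1621 in KO1 and 14344 and 2741 in KO2 (difference 0.58 ± 0.23, adjusted p = 0.679). Tgtp2 had 359, 259 and 199 counts in PBS, 4592, 1341 and 221 in KO1 and 3044 and 414 in KO2 (adjusted p = 0.882). Irgm1 had 604, 629.5 and 436 counts in PBS and 454 to 5441 in the knockout libraries, and Irgm2 had 569.5, 666 and 653 in PBS and 697 to 5251. By letter, 13 of 14 were higher in KO1 A and in KO2 B, 11 in KO1 B, 7 in KO1 C and 10 in KO2 C. Genes of antigen presentation by MHC class I followed, with 16 of 19 higher (median difference 0.17, lowest adjusted p 0.706). H2-K1, a classical class I heavy chain, had 8986, 8709 and 3947 counts in PBS, 20351, 14484 and 9534 in KO1 and 12625 and 8972 in KO2 (difference 0.37 ± 0.15, adjusted p = 0.706). B2m, the light chain shared by class I molecules, had 57447, 31551 and 33444 counts in PBS, 137013, 52958 and 44952 in KO1 and 94275 and 34678 in KO2 (adjusted p = 0.895), so the groups overlapped. The Qa gene H2-Q7 had 248, 237 and 327 counts in PBS, 6570.4, 1489.8 and 896 in KO1 and 2818 and 604 in KO2 (adjusted p = 0.832), with no overlap, and H2-Q4 had 3029, 325 and 2234 in PBS and 2306 to 11043. The class I genes are near-identical copies of each other, so reads may have been split between them. By letter the list's median difference was 0.43, 0.12 and 0.07 in KO1 and 0.26 and 0.04 in KO2, again lowest in the C libraries. The choroid sums (203292, 361926 and 6727 in KO1, 313724 and 22988 in KO2) and the monocyte and neutrophil sums (32407, 27825 and 1524, and 30165 and 5776) were lowest there too, and their part was not tested.

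**Figure D4:**
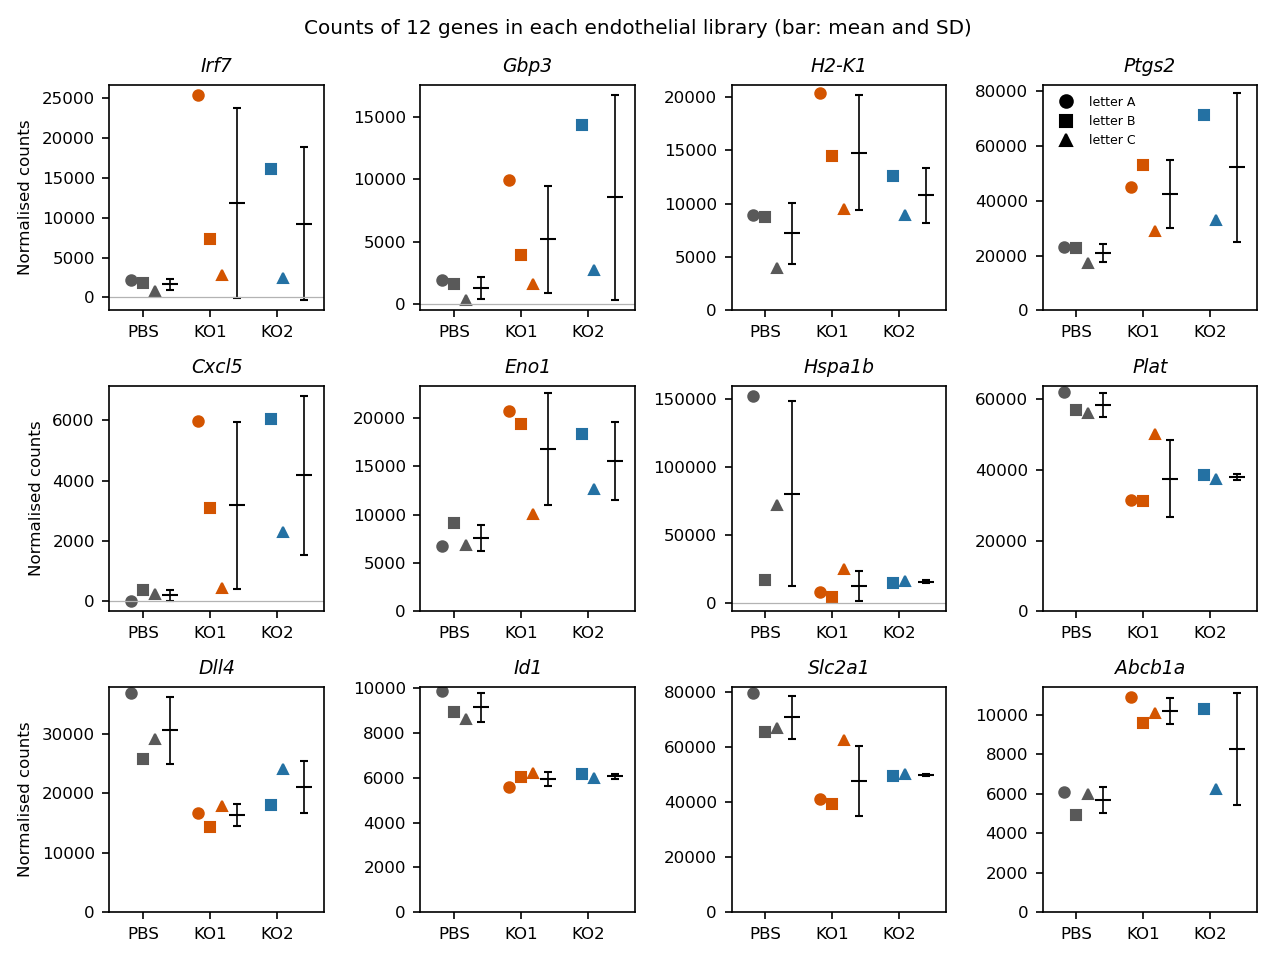
Normalised counts (linear axis from 0 or below where the SD reaches under 0) of 12 genes in each PBS, KO1 and KO2 library, with the letter as the symbol and the mean ± SD of each group beside the points. Irf7 and Gbp3 are high in KO1 A and KO2 B and low in the C libraries, whereas Id1 and Dll4 are lower than PBS in all 5.

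Among inflammatory mediators, the enzyme Ptgs2 and the chemokine Cxcl5 were the most separated. Ptgs2, cyclooxygenase 2, which starts prostaglandin synthesis, had 23008, 22767 and 17209.6 counts in PBS, 45257, 53308 and 28966 in KO1 and 71477 and 33073 in KO2. That was 2.26-fold of PBS as a mean (difference 0.74 ± 0.20, adjusted p = 0.494), and every knockout library exceeded every PBS library. The authors' deposited table lists Ptgs2 at an adjusted p of 4.34e-07, in a likelihood-ratio test by its name, and the labels do not say which groups it contrasts. Cxcl5, a neutrophil-attracting chemokine, had 4.63, 358 and 255 counts in PBS, 5978, 3105 and 455 in KO1 and 6042 and 2306 in KO2 (difference 0.63 ± 0.17, adjusted p = 0.492). Ccl20 was listed at 0 in PBS, with 935, 81.5 and 0 counts in KO1 and 113 and 174 in KO2. Ccl5 had 239, 82 and 43.7 counts in PBS and 2431, 738 and 289.7 in KO1 and 3457 and 192 in KO2. Cxcl12, the ligand of CXCR4, went the other way: 25474, 8281 and 14487 counts in PBS, 10021, 1664 and 11883 in KO1 and 7087 and 4553 in KO2, with overlap (adjusted p = 0.805). Of 17 chemokines 13 were higher (median 0.14), and of 19 cytokine and prostaglandin genes 16 were (median 0.13), with lowest adjusted p of 0.492 and 0.494. Against the PBS library of the same letter, 11, 11 and 3 of the 17 chemokines were higher in KO1 A, B and C and 14 and 9 in KO2 B and C. For the 19 cytokine genes the counts were 12, 12 and 8, and 17 and 10. The choroid sums (203292, 361926 and 6727 in KO1, 313724 and 22988 in KO2) and the monocyte and neutrophil sums (32407, 27825 and 1524, and 30165 and 5776) were lowest in the C libraries as well. The other members named there were Tgfb1 (5036, 5706 and 4978 in PBS, 5766 to 8178 in the knockouts), Csf2, Pla2g4a, which frees arachidonic acid, and Il6 (3319, 12164 and 9612 in PBS, 9438 to 17922 in the knockouts). NF-kB subunits and feedback genes were not one-sided, with 9 of 17 higher (median 0.004, and -0.009 after quantile normalisation). Leukocyte adhesion genes had 9 of 14 higher (median 0.04). Vcam1, which binds the integrin VLA-4, had 3248, 932 and 858 counts in PBS, 7262, 10452 and 1151 in KO1 and 11274 and 1247 in KO2, high in the knockout libraries of letters A and B, and Icam1 had 28581, 12764 and 15902 in PBS and 7232 to 22925 in the knockouts. The part of other cells in these differences was not tested.

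Heat shock chaperones lay below PBS in 15 of 17 genes tested (median difference -0.24), and none passed (lowest adjusted p 0.452). These proteins refold damaged proteins and are made under HSF1 when cells are stressed. Hspa1b, an inducible HSP70, had 152493, 16776 and 72139.6 counts in PBS, 7944, 4053 and 25186 in KO1 and 14812 and 16259.9 in KO2 (difference -1.46 ± 0.49, adjusted p = 0.601). Hspa1a, its adjoining copy, had 82374, 9175 and 42601 counts in PBS, 3955, 1873 and 12041 in KO1 and 8403 and 6303 in KO2 (adjusted p = 0.526). PBS A and PBS C were high for both genes, whereas PBS B overlapped with the knockouts. Dnajb1, an HSP40 cochaperone, had 8799, 5967 and 6341 counts in PBS, 2061, 4002 and 4159 in KO1 and 3419 and 3297 in KO2 (difference -0.35 ± 0.091, adjusted p = 0.452), without overlap. Bag3, which hands clients to autophagy, had 6207, 5871 and 7628 counts in PBS, 4662, 3853 and 5803 in KO1 and 3615 and 3354 in KO2 (adjusted p = 0.53), also without overlap. Hspb1 had 78802, 33839 and 55996 counts in PBS and 19189.6 to 46213 in the knockouts. By letter, the list's median was -0.57 in KO1 A, -0.14 in KO1 B, -0.10 in KO1 C, -0.04 in KO2 B and -0.22 in KO2 C. Immediate early genes, which dissociation also induces, had 9 of 24 higher (median -0.05): Atf3 had 10864, 3360.2 and 6820.4 counts in PBS and 2486 to 4360.1 in the knockouts, Nr4a1 4321, 1385 and 2289 and 628 to 1509, and Myc 899.9, 2327 and 1853 and 2144 to 4969.

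The signalling lists that hold endothelial identity had more lower than higher means, though not in every library. The endothelial markers themselves had 5 of 17 higher (median -0.059). On log2 of counts plus 50 scaled to those markers, 10 of 23 BMP and TGF-beta genes and 8 of 21 VEGF and angiopoietin genes were higher. The VEGF receptor gene Kdr is part of the marker sum, so the VEGF count is not independent of the scaling. With the same scaling 3 of 16 Notch genes, 2 of 16 YAP targets and 6 of 20 Wnt genes were higher. In the Notch list, 3 of 16 were higher (median -0.09, lowest adjusted p 0.452). Dll4, the Notch ligand of arterial and tip cells, had 36779, 25752 and 29129 counts in PBS, 16747, 14355 and 17889.8 in KO1 and 17955 and 24120.2 in KO2 (difference -0.44 ± 0.11, adjusted p = 0.452). The receptor Notch1 had 18917, 13381 and 13686 counts in PBS, 7723, 9715 and 10151 in KO1 and 11141 and 12532 in KO2 (adjusted p = 0.535), and the target Nrarp, a feedback inhibitor, had 1526, 1906 and 1919 in PBS, 521, 762 and 904 in KO1 and 23.9 and 1459 in KO2 (adjusted p = 0.69). Ligand, receptor and target were each below PBS in all 5 knockout libraries. They were the only 3 of the 16 Notch genes with such a gap, which 3.09% of all genes had. Naming genes by p in this contrast favours it, here and in the other lists. Notch3, a mural cell receptor, had at most 74.4 counts in any library. In the BMP and TGF-beta list 6 of 23 were higher (median -0.08). Id1, the classical BMP target, had 9838, 8902 and 8623 counts in PBS, 5598, 6032 and 6180.1 in KO1 and 6137 and 5960.4 in KO2 (difference -0.24 ± 0.066, adjusted p = 0.494). Id3 had 27141, 18369 and 22807 counts in PBS, 15939, 15616 and 16240.0 in KO1 and 14297 and 17789.5 in KO2 (adjusted p = 0.525), so both Id genes were below PBS without overlap, letter C included. Acvrl1, the ALK1 receptor, had 13527, 11466 and 11433 in PBS and 8395 to 11469.9, overlapping, as did the inhibitor Smad6. YAP targets were higher in 2 of 16 (median -0.07): Ccn1 had 36895, 9611 and 18251 counts in PBS, 5900.2, 5137 and 7830.1 in KO1 and 10351 and 7784 in KO2 (adjusted p = 0.544), and Ccn2 and Ptpn14 also had lower means. Of 21 Wnt genes 8 were higher (median -0.06), but by letter 4, 4 and 10 in KO1 and 13 and 11 in KO2: the inhibitor Apcdd1 had 2085, 1469 and 2603 counts in PBS, 148, 0 and 738 in KO1 and 623 and 849 in KO2 (adjusted p = 0.452), and the transcription factor Lef1 1541, 893 and 1188, 610.0, 269.5 and 724 and 257 and 749 in turn. Of 21 VEGF and angiopoietin genes 7 were higher (median -0.07), and by letter 6, 7 and 9 in KO1 and 12 and 10 in KO2. By letter, the medians of the Notch list and of the BMP and TGF-beta list were below 0 in all 5 knockout libraries (-0.12 to -0.04 and -0.13 to -0.04), and that of the YAP list was 0.03 in KO1 A and -0.17 to -0.06 in the rest. The receptor Kdr had 23448, 15010.0 and 21665 counts in PBS and 10499.5 to 17757 in the knockouts, Aplnr 1923, 1833 and 2239 and 2.17 to 1912, and the ligand Vegfa 449.9, 215 and 429.6 and 103 to 2296.

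Blood-brain barrier transporters had 7 of 22 higher (median -0.10) and junction genes 3 of 14 (median -0.08), with none past the threshold. Slc2a1, the glucose transporter GLUT1, had 79679, 65587 and 67039.8 counts in PBS, 41184, 39439 and 62425 in KO1 and 49462 and 50116 in KO2 (difference -0.42 ± 0.13, adjusted p = 0.593). Slc16a1, which carries lactate and ketone bodies, had 9023, 8423 and 7670.4 counts in PBS, 4536, 2961 and 3982 in KO1 and 5614 and 3629.6 in KO2 (adjusted p = 0.492). Both were below PBS in every knockout library. Slc40a1, the iron exporter ferroportin, had 45546, 19125 and 45564 counts in PBS, 6524, 12876 and 22778 in KO1 and 16136 and 19498 in KO2 (adjusted p = 0.593), overlapping through PBS B. Slc1a1, a glutamate transporter, and Tfrc, the transferrin receptor, also had lower means with overlap. The efflux pump Abcb1a (P-glycoprotein) was the exception: 6078, 4901 and 5999 counts in PBS, 10875, 9575 and 10095 in KO1 and 10274 and 6254 in KO2, all above PBS (difference 0.27 ± 0.069, adjusted p = 0.452). The wild-type libraries had 4751 and 5069.7 counts of Abcb1a, within or below the PBS range. Of the junction genes, the adhesion molecule Esam had 76212, 67435 and 66931 counts in PBS, 55647, 41851 and 56565 in KO1 and 46132 and 52962 in KO2 (difference -0.37 ± 0.11, adjusted p = 0.526). Cldn5, the main claudin of the barrier, had 65907, 75757 and 58331 counts in PBS, 66380.1, 56822 and 63909.7 in KO1 and 53672 and 67837 in KO2, which overlapped. Its difference was -0.089 ± 0.12 on the deposited scale. On log2 of counts plus 50 it was -0.113, and 0.037 once those counts were also scaled to endothelial markers. Cldn5 itself leads the marker sum used for that scaling, which draws its own difference toward 0. Marveld2 also overlapped. With that scaling, 7 of 14 junction genes were higher. Cldn5 and Esam are part of the marker sum, so this count is not independent of the scaling.

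Plat, the tissue plasminogen activator, was below PBS in all 5 knockout libraries. It had 62181, 57064 and 56037 counts in PBS, 31415, 31216 and 50091 in KO1 and 38610.2 and 37407 in KO2 (difference -0.47 ± 0.12, adjusted p = 0.452). Plau, the urokinase form, had 624, 1379.5 and 606 counts in PBS, 19970.2, 10452 and 1651 in KO1 and 576 and 2748 in KO2 (adjusted p = 0.874), and was high in KO1 A and KO1 B but not in KO2 B. S100a10 and Anxa2, which together bind plasminogen at the cell surface, had 157, 220.2 and 104 and 7812, 12116 and 7869 counts in PBS against 363 to 901 and 11040.3 to 14892 in the knockouts. Of the 15 genes of plasminogen activation and coagulation control 9 were higher (median 0.04). Of 28 genes of basement membrane and matrix 13 were higher (median -0.03, but 0.09 on log2 of counts plus 50 scaled to endothelial markers). The laminin chain Lamc1 had 28793, 21505 and 27036 counts in PBS, 18241, 17443 and 21321 in KO1 and 18464 and 16943 in KO2, below PBS throughout (adjusted p = 0.452). Itga5 and Col18a1 had higher means, with KO1 C inside or below the PBS range. Of 13 hyaluronan genes 7 were higher (median 0.02, but -0.01 without the C libraries). Mouse Cemip was near the floor, with 0, 1.37 and 66.2 counts in PBS and 0 in every knockout library. This is the recipient's own gene and not the donors', so it does not check the knockout labels. Cemip2, a hyaluronidase of the same family, had 3068, 2517 and 3596 in PBS and 2497 to 6646 in the knockouts, the hyaluronan receptor Cd44 152, 229 and 217 and 1.05 to 1455, and the synthase Has2 0, 26 and 0.91 and 0 to 523.

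Genes of glycolysis and hypoxia lay higher in 21 of 25 (median 0.15, lowest adjusted p 0.452), 6 of them at an unadjusted p under 0.05, with 1 lower, against 1.74% higher and 4.70% lower of all genes. Eno1, an enolase, had 6738, 9120.3 and 6878 counts in PBS, 20702, 19384 and 10105 in KO1 and 18340.4 and 12665 in KO2 (difference 0.50 ± 0.13, adjusted p = 0.452). Aldoa, aldolase A, had 24135, 29048 and 24175 counts in PBS, 35527, 36052 and 28442 in KO1 and 32845 and 35166 in KO2 (adjusted p = 0.552), with a small overlap at KO1 C. Tpi1 had 3327, 4457 and 2115 counts in PBS, 8808, 8469 and 3188 in KO1 and 8394 and 5375 in KO2 (adjusted p = 0.67). Adm, a vasodilator peptide induced by low oxygen, had 7423, 6235 and 7628 counts in PBS and 3796 to 7199 in the knockouts, and was the 1 lower gene. The 6 higher were Eno1, Aldoa, Tpi1, Gpi1 and Hk1, which are glycolytic enzymes, and the growth factor Vegfa. By letter, the median was 0.19, 0.21 and 0.03 in KO1 A, B and C and 0.21 and 0.09 in KO2 B and C, so the C libraries were lowest, as they were for the choroid sums of 6727 and 22988 counts, whose part was not tested. Iron and oxidative defence had 10 of 23 higher (median -0.06, but 0.04 on log2 of counts plus 50 scaled to endothelial markers), with the metallothioneins above and ferroportin below. Lysosomal genes had 15 of 20 higher (median 0.05): Lamp1 had 17088, 19607 and 20169.7 in PBS and 21357 to 26233, without overlap, whereas the acid lipase Lipa had 25254, 24424 and 37118 in PBS, 10935, 16258 and 20574 in KO1 and 17129.6 and 17234 in KO2, lower without overlap. Ctsz and Lgmn had higher means with overlap, and Ctss, a cathepsin abundant in microglia, had 31, 0 and 0 counts in PBS, 4.11, 505 and 38.5 in KO1 and 1897 and 515 in KO2.

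Oxidative phosphorylation genes had 26 of 29 higher (median 0.06), and cytosolic ribosomal proteins 24 of 30 (median 0.05), although without the C libraries 14 of 30 ribosomal genes were higher (median -0.003). Cholesterol synthesis had 9 of 18 higher, the unfolded protein response 7 of 21 (13 of 21 when scaled to endothelial markers), and tetraspanins and exosome release 12 of 23. Endothelial transcription factors had 5 of 23 higher (9 of 22 when so scaled) and p53 targets 3 of 17 (5 of 17 when so scaled). Cell cycle genes had 10 of 25 higher (16 after quantile normalisation): the S-phase cyclin Ccne1 had 88.9, 97 and 198 counts in PBS and 0 in every knockout library (adjusted p = 0.133), and the ribonucleotide reductase subunit Rrm2 had 149, 204 and 224 in PBS and at most 1.03. No member of any of the 30 lists passed.

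**Figure D5:**
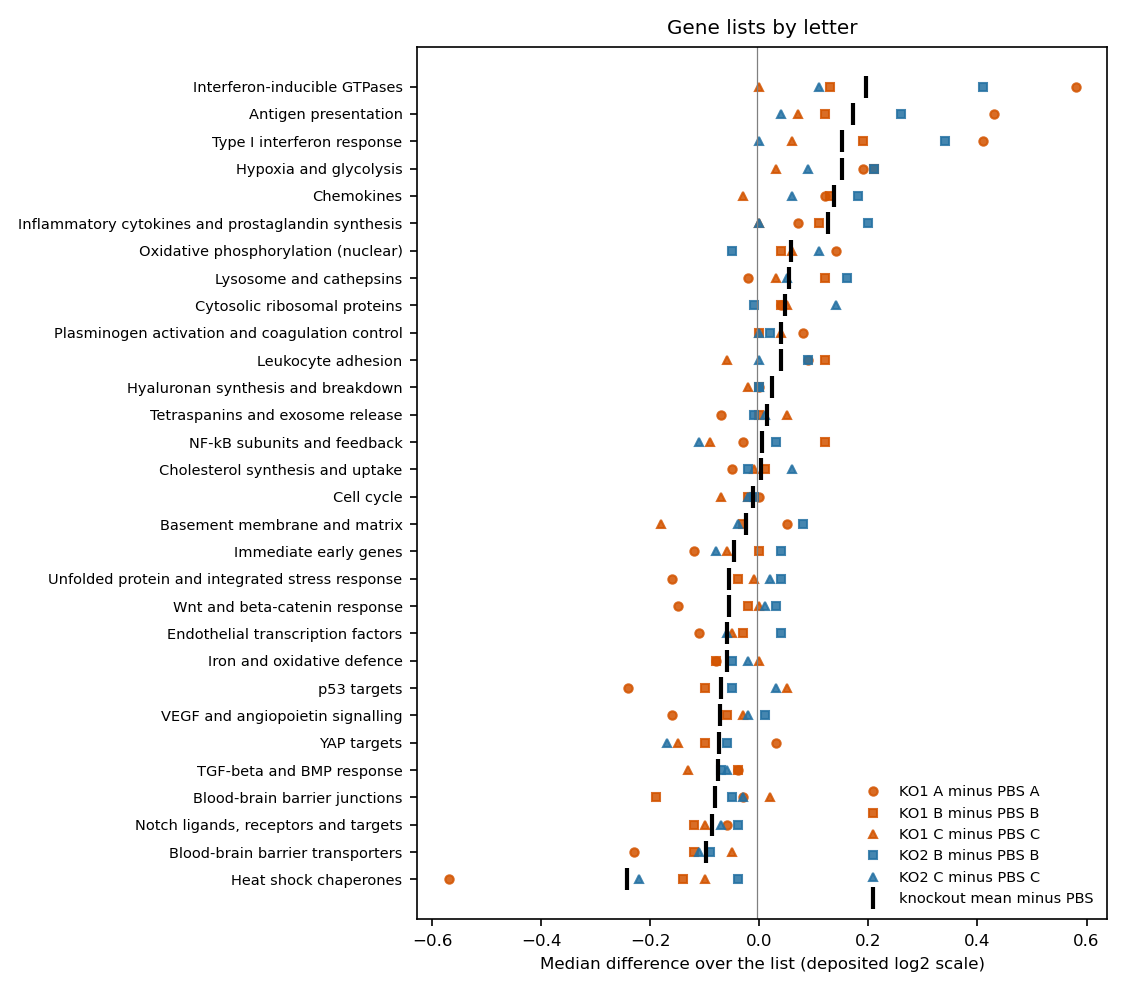
Median difference (deposited log2 scale) of each of 30 gene lists between a knockout library and the PBS library of the same letter (points) and for the knockout mean minus PBS (black bar). Interferon-inducible GTPases reach 0.58 in KO1 A and lie at 0.00 in KO1 C, and heat shock chaperones lie below 0 in all 5.

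Taken one at a time against the same PBS libraries, KO1 gave 11 genes past the threshold (0.0777% of those tested), all lower, and KO2 gave 9 (0.0635%), 3 higher (0.0212%) and 6 lower (0.0424%). Neither count was stable: KO1 gave 0 without KO1 A or KO1 B, 1 without KO1 C, and 17, 20 and 17 without PBS A, PBS C and KO2 C. KO2 gave 0 without PBS A, PBS B or any KO1 library, but 56 higher and 12 lower without KO2 B and 149 higher and 11 lower without KO2 C. These comparisons share their PBS libraries. Pot1a was lower in both, with adjusted p of 0.0283 in KO1 and 0.0322 in KO2. The 3 genes higher with KO2 were Qrfpr, a neuropeptide receptor, Cd33, a sialic acid lectin of myeloid cells, and Selenbp1. Qrfpr had 0, 0 and 1.82 counts in PBS, 0 in the KO1 libraries and 229 and 376 in KO2, and Cd33 had 0, 1.37 and 0 in PBS, 0 in KO1 and 142 and 111 in KO2. The difference between the knockouts was tested directly as KO1 minus KO2, and 3 of 14164 genes passed (0.0212%), all lower in KO1. They were Qrfpr (difference -0.25, adjusted p = 0.0276), Cd33 (-0.16, adjusted p = 0.0361) and Mutyh, a DNA glycosylase (-0.21, adjusted p = 0.0414). Mutyh had 42.7, 62.2 and 42.3 counts in PBS, 0 in KO1 and 194 and 249.5 in KO2. No gene passed in this contrast when any PBS or KO1 library was left out, and 79 and 188 did without KO2 B and KO2 C. With 2 KO2 libraries, neither of letter A, the rest of the genes were not shown to act alike.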

How the data were processed

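Endothelial cells sorted from mouse brain slices were sequenced. The authors deposited 1 table of log2 values that they had variance-stabilised, per the labels, for 20555 genes in 10 endothelial libraries. The submitters' processing notes name FastQC 0.11.7, Trimmomatic 0.38, Salmon 0.10.0, DESeq2 1.18.1 and GRCm38.p6, with no role or order. The authors' second table, also deposited, gives a mean normalised signal per gene, test scores and an adjusted p-value for 362 genes, and its mean was used to check the recovered counts (ratio 1.0 for all 362).

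The log2 table has a floor of 13.2814, from which each value was inverted to a normalised count. Of the low values, 70.8% to 88.9% per library lay near whole reads, too few to run a count test. All 14164 varying genes were fitted with limma 3.58.1 (R 4.3.3), 1 mean per group over the 10 libraries, with a mean-variance trend and Benjamini-Hochberg adjustment, threshold 0.05. The wild-type libraries entered only the shared spread. The contrasts were the knockout mean, KO1 and KO2 against PBS, and KO1 against KO2. The fit was tested on simulated data with 200 of 9428 genes changed. Those 9428 genes had a mean of at least 100 counts, and only 3 of the 17 calls of the knockout mean were among them. Recovery and false calls at lower counts were not tested. At a mean of at least 100 counts the fit recovered 18% of 2-fold and 57% of 4-fold changes. There, 7.41% of its 81 calls were false. A gene that did not pass may therefore still have changed.

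Genes named were the 12 higher and 12 lower of smallest p among those with a mean count of at least 100. Up to 4 members of each list of smallest p, its best-known member and 5 check genes were also named, whatever their means. Called genes below 100 counts, the KO2 and between-knockout calls, and Mt1, Ifit3, Gpi1, Hk1, Ttr, Enpp2 and Lcn2 were named after their values were seen. The comparison, the 30 pathway lists and the 13 marker lists were chosen with earlier results of these data known. Some genes that the rule selects are not reported here. The alternatives were a replicate block, other fits, filters, scalings, pseudocounts of 10 and 50, and leaving out libraries.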

Additional observations from a re-analysis of the deposited data

Results flagged for a closer look

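The difference between the knockouts passed the threshold for 3 genes, tested as KO1 minus KO2 in the limma fit over 14164 genes. Qrfpr differed by -0.25 on the deposited log2 scale, with 0 counts in the KO1 libraries and 229 and 376 in KO2. Cd33 differed by -0.16, with 0 counts in KO1 and 142 and 111 in KO2. Mutyh differed by -0.21, with 0 counts in KO1 and 194 and 249.5 in KO2. KO2 had 2 libraries, and no gene passed this contrast when any PBS or KO1 library was left out.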

How the results depend on the processing

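Libraries of the same letter tended to deviate together, but not in every pair: same-letter deviations correlated at 0.023 to 0.236 (12 pairs, median 0.126, 7 over 0.1), and other-letter ones at -0.236 to 0.12 (25 pairs, median -0.053, 1 over 0.1). With the letter as a replicate block, 0 genes passed in each of the 4 contrasts (knockout mean, KO1 and KO2 against PBS, and KO1 against KO2, in that order below), and 1018 had an unadjusted p under 0.05 for the knockout mean.

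The 17 calls of the knockout mean were fragile. No gene passed with log2 of counts plus 10 or plus 50, a mean count of at least 10, counts scaled to endothelial markers, or no C libraries (0 in each), where 741, 690, 715, 683 and 992 genes had an unadjusted p under 0.05. Of the values filtered to a mean at least 1 above the floor, 0, 0, 0 and 1 passed, with 148 at an unadjusted p under 0.05. Only the PBS and knockout libraries gave 10, 0, 0 and 0, with 6 of the 10 among the 17. All knockout libraries as 1 group gave 28, which held all 17. Quantile normalisation gave 3, 0, 8 and 3, and no trend gave 1, 3, 0 and 0. Without the C libraries KO1 gave 0, KO2 gave 109 (105 higher) and KO1 against KO2 125. Leaving out each library gave 0 to 137, 0 to 20, 0 to 160 and 0 to 188. For the knockout mean it was 0 without KO1 A or KO1 C, 27 without PBS B, 61 without KO2 B and 137 without KO2 C (99 higher). Leaving out a KO2 library leaves 1, assumed to vary like the other groups. The cause was not tested.

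Signs reversed for Cldn5 (0.004 with quantile normalisation, 0.037 on log2 of counts plus 50 with marker scaling), Pecam1 (-0.009 without the C libraries), Itga4 (0.016 with quantile normalisation, 0.042 without the C libraries, -0.061 to 0.005 when a library was left out) and Has2 (-0.013 without the C libraries, -0.005 to 0.142 when a library was left out). Cldn5 leads the marker sum used for the marker scaling. Of the other values of single genes, 2161 kept direction and side of the threshold, 240 lost it and 8 gained it. Only the 17 calls of the knockout mean and the 3 between the knockouts could lose it, of 132 results followed. The 2161 therefore rest mostly on genes that had not passed. The median difference of all genes was -0.005 on the deposited scale, -0.139 on log2 of counts plus 10, -0.062 on log2 of counts plus 50, and 0.064 on the latter scaled to endothelial markers. Low counts and 2 KO2 libraries limit the precision.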
